A study of Mus musculus with 24 samples.

Results

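The 35 genes described here serve protein folding and the stress response of the endoplasmic reticulum (ER). They comprise 13 folding factors (Hspa5, Hsp90b1, Calr, Canx, Pdia3, Pdia4, Pdia6, P4hb, Dnajb11, Sdf2l1, Creld2, Manf and Hyou1), 7 genes of ER-associated degradation or ERAD (Herpud1, Sel1l, Syvn1, Edem1, Edem2, Derl1 and Derl2) and 3 other ER genes (Dnajb9, Dnajc3 and Sec61b). The 3 stress sensors Atf6, Ern1 and Eif2ak3, the transcription factor gene Atf4, and 8 genes known as targets of ATF4 (Atf5, Ddit3, Atf3, Trib3, Ppp1r15a, Asns, Chac1 and Sesn2) complete the set. Members were taken by name: each row of the count table whose Ensembl identifier maps to a listed symbol. All 35 were found among the 55487 genes of the table, and all 35 were among the 14099 genes with enough counts to be tested. A second row that carries the symbol Ddit3 was listed at 0 in the 24 libraries and was not used.

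Poly(A) RNA was sequenced from 24 mouse co-cultures, 3 in each of 8 groups. In each, bone-marrow-derived macrophages were kept with lymphocytes taken from the spleens of mice that carried B16-F10-OVA tumours, a melanoma line engineered to express ovalbumin. The macrophages were Tmem175-/- or WT. Tmem175 encodes a lysosomal ion channel. For each macrophage genotype there were cultures given B16-F10-OVA tumour cell antigen with IL-1β at 500 pg/ml (KO_Ag_IL1b, WT_Ag_IL1b), antigen with IL-18 at 500 pg/ml (KO_Ag_IL18, WT_Ag_IL18), antigen without cytokine (KO_Ag, WT_Ag), and no antigen (KO_none, WT_none). The labels give neither the genotype, strain or age of the lymphocyte donors, nor the dose of antigen, nor the culture time. They do not say whether the 3 replicates came from separate animals, preparations or wells, so the p-values below measure the spread between these samples. For 11 of the 12 knockout samples the label for genotype gave other gene names, numbered consecutively. The titles of all 12 name Tmem175, and the titles were followed.

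Levels are given as counts scaled to a common library size (CPM), and differences as log2 fold changes ± SE. A gene was called, and is said to have risen or fallen, where its adjusted p from edgeR's quasi-likelihood test was under 0.05 over all 14099 genes. Library totals ran from 17744540 to 24898552 counts. Tmem175 RNA was lower in knockout than in WT cultures in each condition, with log2 fold changes of -0.87 with IL-1β, -0.82 with IL-18, -0.91 with antigen alone and -0.79 without antigen. It remained detected in each knockout library. The culture RNA was rich in macrophage transcripts: 8 macrophage markers summed to 11800 to 18000 CPM in knockout and 17100 to 25000 CPM in WT libraries. The 8 T cell markers summed to 13.9 to 25.9 CPM in knockout and 16.8 to 22.2 CPM in WT libraries. Without antigen their sums were lower in knockout, at 13.9 to 15.2 CPM against 18.5 to 19.6 CPM. With antigen alone and with IL-1β the ranges overlapped. With IL-18 the T cell sums were higher in knockout, at 19.9 to 25.9 CPM against 16.8 to 19.3 CPM. The 7 B cell markers summed to 59.4 to 76.2 CPM in knockout and 46.8 to 57.1 CPM in WT libraries. A sum follows its most abundant genes, and without cytokine the mean log2 CPM (0.5 added) of the B cell markers went the other way. It was 1.2 to 1.32 in KO_none against 1.54 to 1.68 in WT_none, and 1.67 to 1.84 in KO_Ag against 1.92 to 2.07 in WT_Ag. With either cytokine the genotypes overlapped. The 8 fibroblast markers summed to 13.3 to 62.5 CPM in knockout and 29 to 189 CPM in WT. The 6 dendritic cell markers summed to 2.24 to 12.7 CPM in knockout and 7.34 to 28.6 CPM in WT. The 6 melanoma markers summed to 0.615 CPM at most, and 1 to 5 of them were at 0 in each library. Plasma cell markers separated the genotypes, with 1010 to 1720 CPM in knockout and 350 to 432 CPM in WT libraries over 10 genes. Macrophage and dendritic cell sums also lay lower in knockout within each condition, without overlap, as did fibroblast sums in each condition with antigen. With IL-18 the dendritic cell sums were 9.49 to 12.7 CPM in knockout against 21.3 to 28.6 CPM in WT. The macrophage sums there were 16500 to 17500 CPM against 22300 to 24600 CPM, although their mean log2 CPM overlapped, at 10.15 to 10.24 against 10.22 to 10.31. Among knockout libraries without antigen, replicate 2 stood apart from replicate 1, with a chi-square per degree of freedom of 16.7, the highest of any replicate pair in these data. Results that depend on it are given without it as well.

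Secreted and membrane proteins are folded in the ER by chaperones such as BiP (Hspa5) and by enzymes that form disulphide bonds, and proteins that fail to fold are sent for destruction by ERAD. When folding falls behind, the sensors ATF6, IRE1 (Ern1) and PERK (Eif2ak3) start the unfolded protein response. ATF6 is cut to a transcription factor that acts on chaperone genes through the ER stress response element, IRE1 splices Xbp1 RNA, and PERK phosphorylates eIF2α. The last step is shared with other kinases that sense amino acid shortage, haem shortage or viral RNA, and it raises the translation of ATF4, which acts on genes of amino acid supply and stress. A rise of ATF4 targets can therefore accompany ER stress or arise outside the ER.

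The promoters of 5 members are shown for the elements through which ATF6 and ATF4 are known to act. RefSeq promoter windows on GRCm38.p6, a build other than that of the count table, were matched by symbol for 31 of the 35 members. Each window holds 300 bases, from 250 before to 50 after the annotated start, and 2 members had a second window. The ER stress response element was searched as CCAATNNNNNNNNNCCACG and the related element ERSE-II as ATTGGNCCACG. The C/EBP-ATF element, which ATF4 is known to bind, was searched as TGATGNAA. Both strands were searched, and no match overlapped another. Capitals mark the fixed bases of a match, and every window reads 5′ to 3′ along its gene.
Hspa5 (chr2:34771840-34772139, plus strand): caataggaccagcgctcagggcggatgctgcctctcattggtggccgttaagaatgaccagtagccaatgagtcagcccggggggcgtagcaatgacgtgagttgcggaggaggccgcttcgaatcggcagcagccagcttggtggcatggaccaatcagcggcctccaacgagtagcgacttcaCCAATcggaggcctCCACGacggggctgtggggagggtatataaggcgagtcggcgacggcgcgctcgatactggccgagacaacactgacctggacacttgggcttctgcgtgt
Calr (chr8:84846882-84847181, minus strand): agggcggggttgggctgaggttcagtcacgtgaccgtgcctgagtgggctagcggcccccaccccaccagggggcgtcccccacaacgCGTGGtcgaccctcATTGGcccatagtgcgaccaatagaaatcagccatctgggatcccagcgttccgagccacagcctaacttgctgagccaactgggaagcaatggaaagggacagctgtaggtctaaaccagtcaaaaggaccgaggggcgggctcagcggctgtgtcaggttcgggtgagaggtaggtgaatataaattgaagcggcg
Creld2 (chr15:88819396-88819695, plus strand): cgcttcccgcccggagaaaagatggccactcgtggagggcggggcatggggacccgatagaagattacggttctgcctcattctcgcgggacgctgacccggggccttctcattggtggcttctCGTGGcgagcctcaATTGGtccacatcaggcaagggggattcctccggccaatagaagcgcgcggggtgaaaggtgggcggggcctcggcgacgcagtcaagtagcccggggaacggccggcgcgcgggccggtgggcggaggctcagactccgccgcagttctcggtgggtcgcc
Trib3 (chr2:152344011-152344310, minus strand): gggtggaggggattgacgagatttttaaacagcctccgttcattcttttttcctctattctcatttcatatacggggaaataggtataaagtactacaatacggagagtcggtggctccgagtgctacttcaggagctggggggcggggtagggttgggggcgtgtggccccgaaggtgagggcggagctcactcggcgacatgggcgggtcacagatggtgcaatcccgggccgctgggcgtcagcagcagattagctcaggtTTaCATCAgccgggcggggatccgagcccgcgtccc
Asns (chr6:7693160-7693459, minus strand): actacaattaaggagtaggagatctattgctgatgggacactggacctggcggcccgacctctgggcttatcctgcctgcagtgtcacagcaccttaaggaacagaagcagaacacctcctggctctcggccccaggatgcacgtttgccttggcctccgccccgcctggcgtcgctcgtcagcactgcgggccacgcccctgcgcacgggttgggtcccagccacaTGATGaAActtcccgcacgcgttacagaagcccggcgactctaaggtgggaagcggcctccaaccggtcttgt

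The ER stress response element was in the windows of 6 of the 11 folding genes matched (Calr, Canx, Creld2, Hsp90b1, Hspa5 and Pdia6) and in those of Syvn1 and Dnajc3, against 0 of 8 ATF4 targets. Of all 32851 windows 0.119% held it. In Hspa5 the match began 65 bases before the start, in Calr 162 and in Creld2 126. ERSE-II was in Dnajb11 and Herpud1, against 0.0365% of all windows. The C/EBP-ATF element was in 4 of the 8 ATF4 targets (Asns, Atf3, Chac1 and Trib3) and in Herpud1, and in 0 of the 11 folding genes. This shorter element was in 3.97% of all windows. In Asns it began 23 bases before the start, and in Trib3 it lay on the other strand and began 14 bases after the start base. These are matches of letters and do not show binding.

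Tumour antigen raised Atf4 and 7 of its 8 targets in both genotypes, while the folding genes split and moved little. Atf4 stood at 398, 354 and 384 CPM in the knockout cultures with antigen, against 106, 100 and 97.8 CPM in those without. The WT values were 392, 343 and 383 CPM with antigen, against 111, 110 and 109 CPM without. The antigen libraries lay above every library without antigen. The log2 fold changes were 1.90 ± 0.0673 in knockout (adjusted p = 9.04e-17) and 1.76 ± 0.0670 in WT (adjusted p = 3.66e-16).

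Trib3, a pseudokinase that restrains ATF4 signalling, had the steepest rise of the 35 genes. It stood at 56.4, 45.5 and 55.1 CPM in knockout cultures with antigen, against 1.47, 1.38 and 1.53 CPM in those without. The WT cultures had 61.3, 53.9 and 57 CPM with antigen, against 1.78, 1.74 and 2.12 CPM without. The groups were far apart, 35.6-fold in knockout (log2 fold change 5.15 ± 0.164, adjusted p = 1.44e-16) and 30.4-fold in WT (4.93 ± 0.156, adjusted p = 1.38e-16).

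Asns, which makes asparagine, stood at 101, 90.4 and 92.9 CPM in knockout cultures with antigen, against 10.4, 11.3 and 8.76 CPM in those without, 9.37-fold higher. WT cultures had 94.7, 83.9 and 85.4 CPM with antigen, against 13.2, 14.8 and 14.8 CPM without, 6.16-fold higher. The levels with antigen overlapped between genotypes, whereas without antigen each knockout library lay below each WT library. Chac1, which breaks down glutathione, was the scarcest member, at 3.53, 2.24 and 2.91 CPM in knockout cultures with antigen, against 0.442, 0.32 and 0.0898 CPM without. The WT cultures had 2.88, 2.09 and 1.92 CPM with antigen, against 0.345, 0.145 and 0.394 CPM without. Its counts were few, and its SE was accordingly the widest of the members, with log2 fold changes of 3.36 ± 0.333 in knockout and 2.93 ± 0.347 in WT.

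Ddit3, the gene of the death-associated factor CHOP, stood at 56.2, 46.3 and 50.8 CPM in knockout cultures with antigen, against 11.2, 12 and 10.3 CPM in those without. In WT cultures the values were 46.4, 52 and 49.3 CPM with antigen, against 8.69, 9.7 and 11.1 CPM without. The rise was 4.59-fold in knockout and 5.02-fold in WT. Atf5, a factor of the mitochondrial stress response, rose 4.69-fold in knockout and 4.87-fold in WT. Sesn2, a restraint on the growth kinase mTORC1, rose 4.09-fold in knockout and 3.72-fold in WT. Ppp1r15a (GADD34), which reverses eIF2α phosphorylation, rose 2.69-fold in knockout and 2.57-fold in WT. Atf3, which responds to many stresses, was the exception. It fell in knockout cultures, to 376, 341 and 364 CPM with antigen against 515, 469 and 514 CPM without (log2 fold change -0.47 ± 0.0497, adjusted p = 2.71e-09). In WT cultures it stood at 379, 361 and 367 CPM with antigen, against 352, 385 and 352 CPM without, overlapping groups with a log2 fold change of 0.02.

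**Figure D1:**
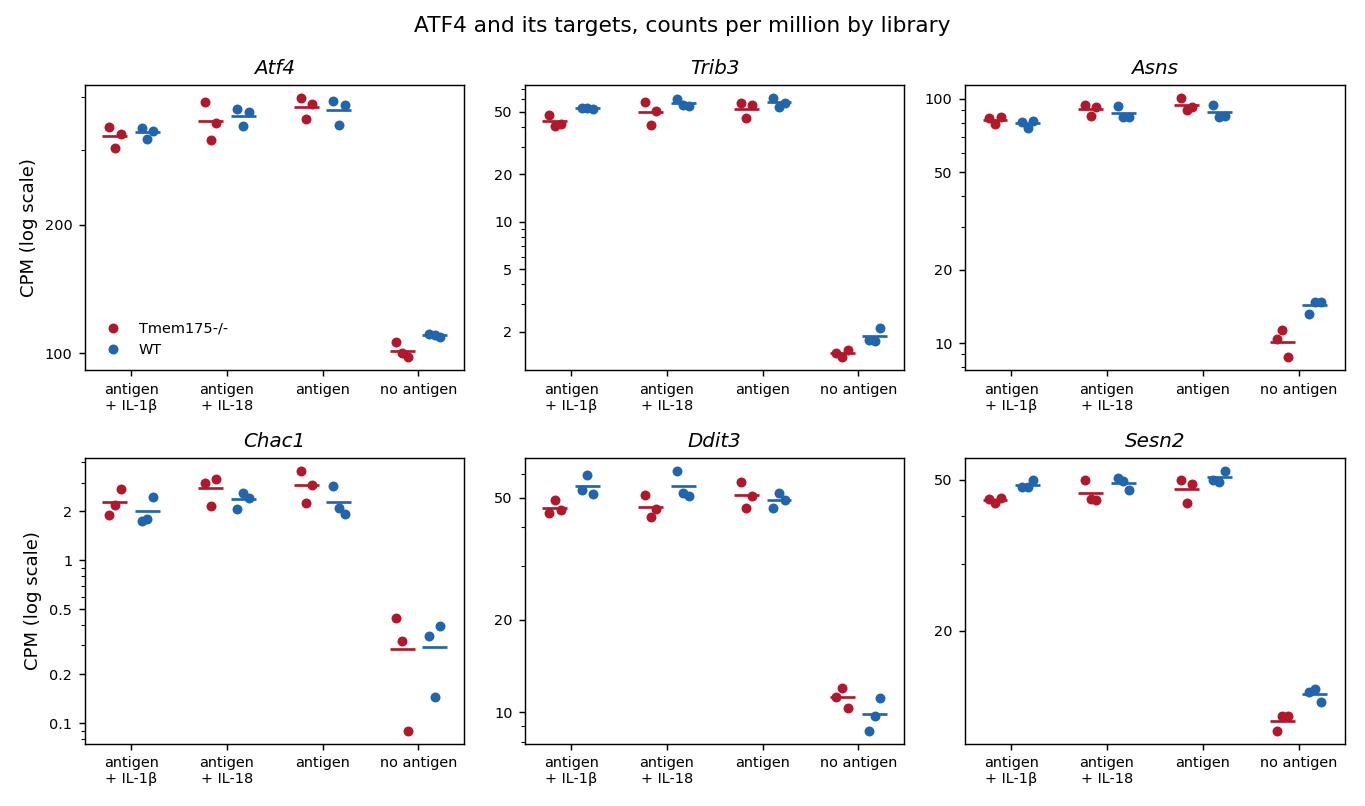
CPM of Atf4 and 5 of its targets on a log axis, by condition and genotype; points are the 3 libraries of a group and lines their means. All 6 genes were higher in every antigen library than in any library without antigen, and Atf4 stood at 354 to 398 CPM in KO_Ag against 97.8 to 106 CPM in KO_none.

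Among the folding genes the abundant chaperones Calr, Hsp90b1 and Hspa5 fell slightly, while Canx, also abundant, was not called in either genotype. Calr, the gene of the lectin chaperone calreticulin, stood at 689, 705 and 727 CPM in knockout cultures with antigen, against 1040, 1070 and 1000 CPM in those without. The WT cultures had 789, 730 and 740 CPM with antigen, against 1010, 1040 and 995 CPM without. The groups did not overlap in either genotype, and the log2 fold changes were -0.55 ± 0.0422 in knockout and -0.43 ± 0.0421 in WT. Hsp90b1 (GRP94, the ER form of HSP90) stood at 649, 649 and 643 CPM in knockout cultures with antigen, against 816, 878 and 795 CPM in those without. The WT cultures had 675, 654 and 659 CPM with antigen, against 819, 866 and 835 CPM without. Both genotypes showed the same modest size of fall, 1.28-fold in knockout and 1.27-fold in WT. Hspa5 (BiP, the master chaperone that also holds the sensors inactive) fell 1.19-fold in knockout (log2 fold change -0.25 ± 0.0424) and 1.12-fold in WT (-0.16 ± 0.0424).

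Sdf2l1, a partner of BiP, fell most among the folding genes, to 26.8, 26.4 and 27.5 CPM in knockout cultures with antigen, against 46.6, 48.2 and 42.2 CPM in those without. In WT cultures it fell to 28.2, 28 and 26.8 CPM with antigen, against 45.3, 46.4 and 42.8 CPM without. The log2 fold changes of Sdf2l1 were -0.76 ± 0.0557 in knockout and -0.70 ± 0.0561 in WT. Creld2, an ER stress-inducible folding factor, fell to 24.4, 23.5 and 23.2 CPM in knockout cultures with antigen, against 28.1, 31.4 and 26.2 CPM in those without. In WT cultures it fell to 18.4, 16.5 and 17.1 CPM with antigen, against 24, 26.7 and 26 CPM without. The log2 fold changes of Creld2 were -0.27 ± 0.0790 in knockout and -0.57 ± 0.0839 in WT, a difference between genotypes that was not called (adjusted p = 0.114).

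P4hb, the gene of protein disulphide isomerase, moved the other way. It stood at 679, 689 and 693 CPM in knockout cultures with antigen, against 555, 541 and 535 CPM in those without. WT cultures had 767, 740 and 730 CPM with antigen, against 519, 543 and 509 CPM without. P4hb rose 1.26-fold in knockout and 1.42-fold in WT, and Manf, a secreted ER stress factor, rose 1.19-fold in knockout and 1.17-fold in WT. Pdia3 (log2 fold change -0.15) and Pdia4 (-0.13), both disulphide isomerases, fell in knockout cultures. In WT cultures Pdia3 had -0.09 and Pdia4 -0.07 without a call. Pdia6 (0.18) and Hyou1 (0.11), a chaperone that helps BiP, rose in WT cultures. In knockout cultures Pdia6 had 0.09 and Hyou1 0.02 without a call. Canx and Dnajb11 were not called in either genotype, with log2 fold changes between -0.06 and 0.06. Without replicate 2 of KO_none the falls of Creld2 (adjusted p = 0.0598), Pdia3 (0.0552) and Pdia4 (0.0527) in knockout cultures lost their call, and that of Pdia4 also did so without replicate 1 of KO_Ag (0.0901).

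**Figure D2:**
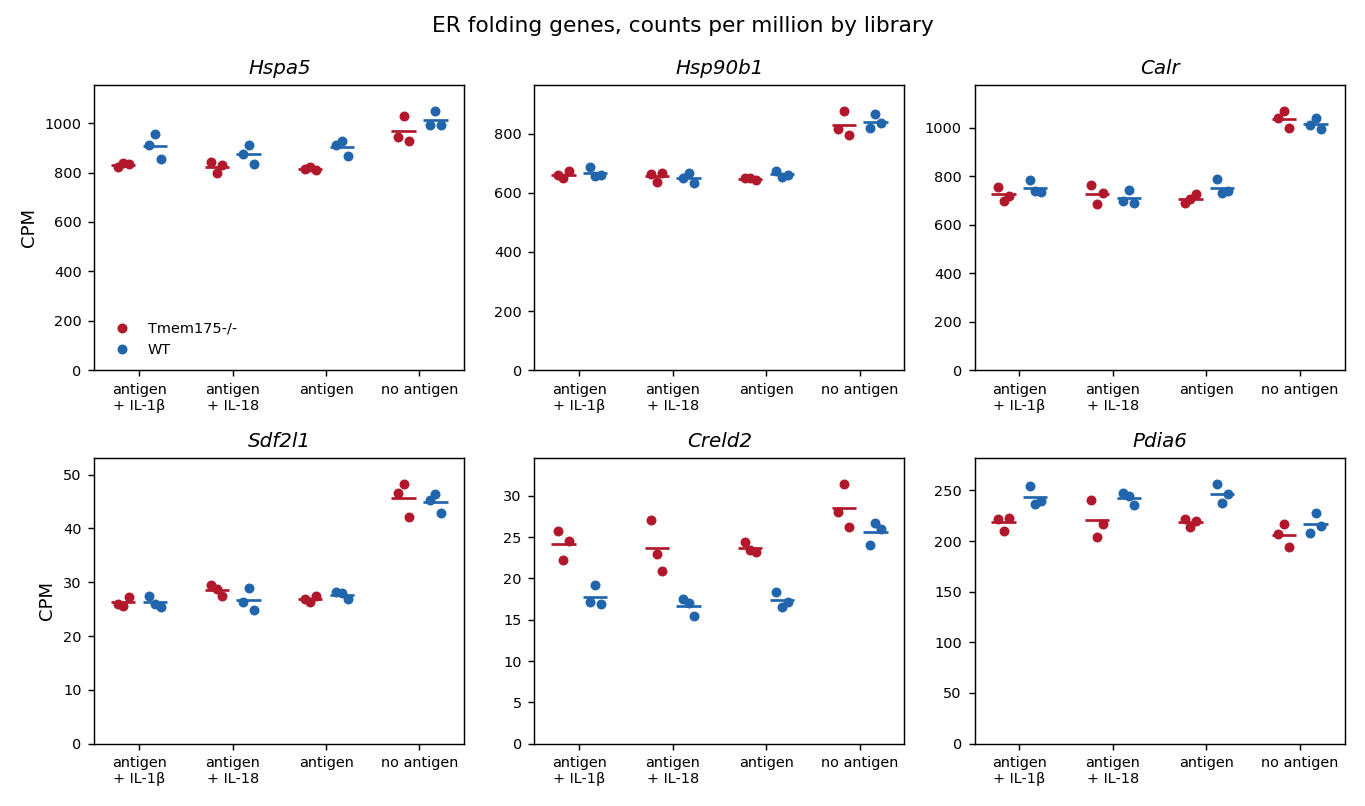
CPM of 6 ER folding genes by condition and genotype on axes that start at 0; points are the 3 libraries of a group and lines their means. Calr, Hsp90b1 and Sdf2l1 were lower with antigen in both genotypes, while Creld2 stood at 23.2 to 24.4 CPM in KO_Ag against 16.5 to 18.4 CPM in WT_Ag.

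Set side by side, the folding genes and the ATF4 targets differed in size and direction under antigen. In knockout cultures the 13 folding genes had a median log2 fold change of -0.13 with 2 higher and 7 lower calls, and the 8 ATF4 targets a median of 2.21 with 7 higher and 1 lower. In WT cultures the folding genes had a median of -0.07 with 4 higher and 5 lower calls, and the ATF4 targets a median of 2.31 with 7 higher and 0 lower. The median over all tested genes was 0.01 in knockout and 0 in WT. Antigen changed much of the transcriptome: 33.8% of all tested genes were higher and 34.6% lower in knockout, and 33.5% were higher and 34.5% lower in WT. Over all 35 members 14 were higher and 14 lower in knockout, and 17 higher and 10 lower in WT, and since calls were so common in the transcriptome these counts say little about the members beside the sizes of their changes. The 2 genotypes share no library in this comparison, though 1 fit gave both tests. In both genotypes 13 members rose (92.9% of those in knockout, 76.5% of those in WT). In both 9 fell (64.3% of those in knockout, 90% of those in WT). The share of all tested genes called in both is not given here, so these counts are not read as a trait of the members. Without replicate 2 of KO_none the folding median in knockout was -0.08. In a mixed culture fewer cells of a type and less RNA per cell cannot be told apart. The 8 neutrophil markers summed to 421 to 472 CPM in KO_Ag against 1270 to 1360 CPM in KO_none, and to 379 to 463 CPM in WT_Ag against 1220 to 1370 CPM in WT_none, with 1 of 8 higher and 6 lower in knockout and 0 higher and 7 lower in WT. Macrophage markers summed to 14800 to 17100 CPM in KO_Ag against 11800 to 12200 CPM in KO_none, and to 23900 to 25000 CPM in WT_Ag against 17100 to 17600 CPM in WT_none. Dendritic cell markers summed to 9.84 to 10.9 CPM in KO_Ag against 2.24 to 3.54 CPM in KO_none, and to 22.3 to 26.2 CPM in WT_Ag against 7.34 to 9.1 CPM in WT_none. Fibroblast markers summed to 42.5 to 51.1 CPM in KO_Ag against 13.3 to 29.3 CPM in KO_none, and to 126 to 189 CPM in WT_Ag against 29 to 101 CPM in WT_none. The part of these cell types in the changes was not tested.

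**Figure D3:**
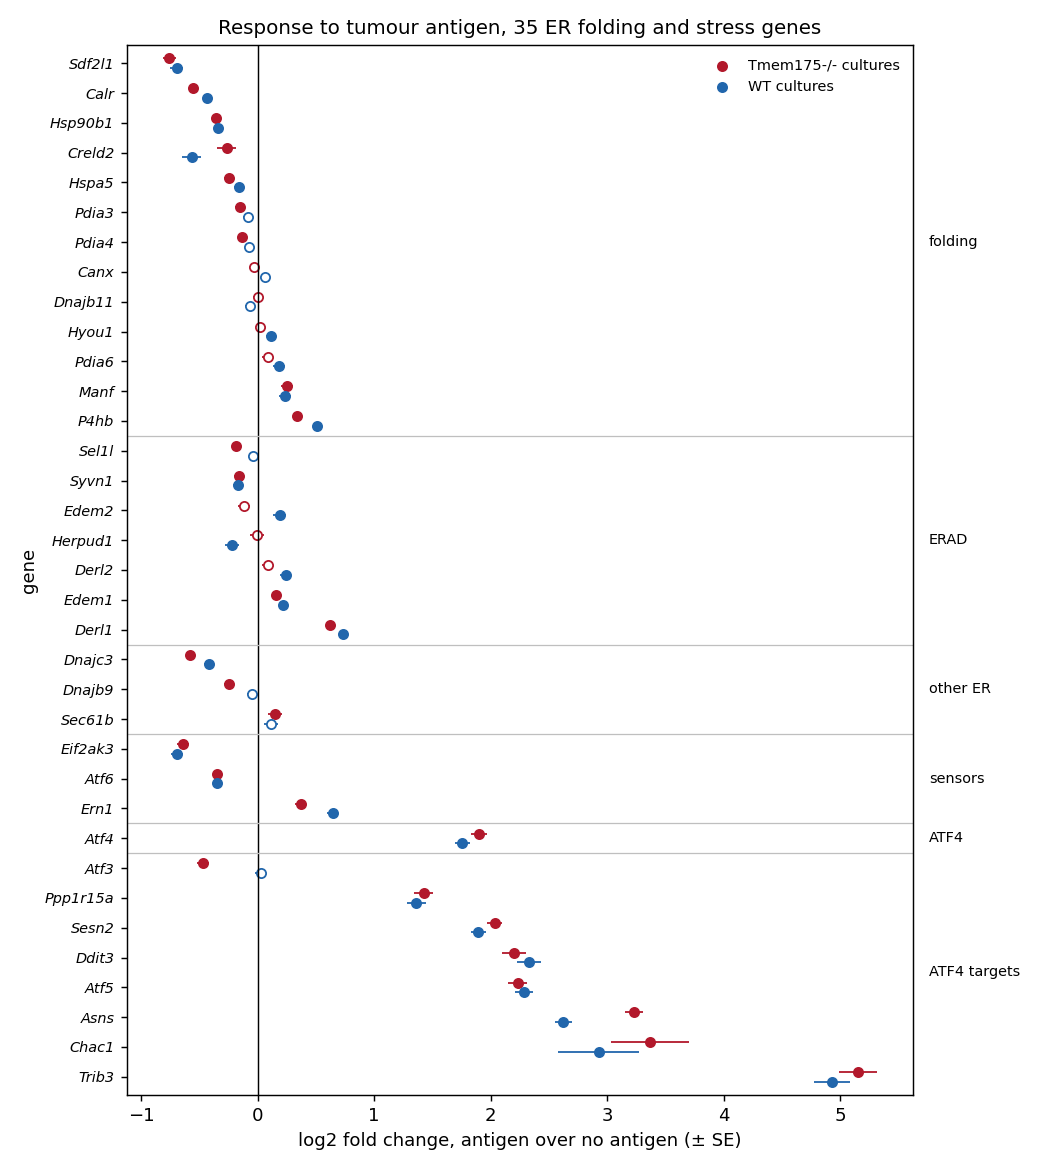
Log2 fold change of each of the 35 genes between cultures with and without antigen, with SE bars, for Tmem175-/- (upper point) and WT cultures (lower point); filled points passed the test and open points did not. The folding genes lie between -0.76 and 0.51, and 7 of the 8 ATF4 targets lie between 1.36 and 5.15 in both genotypes.

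With antigen, Atf4 and Trib3 stood nearer to the folding genes in the order of levels. Per kilobase of longest transcript, the scale on which genes can be compared, Calr was the most abundant member in WT cultures both with antigen (345 CPM per kb) and without (465 CPM per kb). Atf4 stood at 184 CPM per kb with antigen, close to Canx at 188, against 54.6 CPM per kb without antigen, when Canx stood at 180. Without antigen Atf4 was already above folding genes such as Pdia4 (46.8 CPM per kb) and Dnajb11 (42.6 CPM per kb). Trib3 stood at 28.3 CPM per kb with antigen, close to Hyou1 at 29.9, against 0.926 CPM per kb without. Chac1 stayed last, at 1.40 CPM per kb with antigen, against 0.180 without.

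The ERAD genes moved in both directions under antigen. Derl1, a channel subunit for the exit of misfolded proteins, stood at 181, 175 and 177 CPM in knockout cultures with antigen, against 116, 119 and 112 CPM in those without. Among WT cultures the values were 192, 186 and 183 CPM with antigen, against 112, 114 and 113 CPM without. Derl1 rose 1.53-fold in knockout and 1.66-fold in WT. Edem1, a mannosidase-like lectin that marks glycoproteins for disposal, rose 1.11-fold in knockout and 1.16-fold in WT. Syvn1, the ubiquitin ligase HRD1, fell in both, with log2 fold changes of -0.16 in knockout and -0.17 in WT. Its partner Sel1l fell in knockout (-0.18) and had -0.04 without a call in WT. Herpud1, which holds the ligase complex together, had -0.01 without a call in knockout and fell in WT (-0.22). Derl2, a relative of Derl1, and Edem2, which starts mannose trimming, rose in WT (0.24 for Derl2, 0.19 for Edem2) and had 0.08 for Derl2 and -0.12 for Edem2 without a call in knockout.

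Of the other ER genes, Dnajc3 (p58IPK, a BiP partner known as an inhibitor of PERK) fell to 106, 116 and 113 CPM in knockout cultures with antigen, against 163, 178 and 160 CPM without. In WT cultures it fell to 123, 118 and 119 CPM, against 163, 161 and 159 CPM without. The groups did not overlap, and the falls were 1.49-fold in knockout and 1.34-fold in WT. Dnajb9 (ERdj4), a target of XBP1, fell in knockout (log2 fold change -0.25) and had -0.05 without a call in WT. Sec61b, a subunit of the translocon, rose in knockout (0.15, adjusted p = 0.0291) and had 0.11 without a call in WT. The Sec61b call was lost without replicate 1 of KO_Ag (adjusted p = 0.0544), replicate 1 of KO_none (0.0994) or replicate 3 of KO_none (0.0734). Of its 75-base stretches 10.1% also occur in other annotated genes, as do 3.88% of those of Derl1, so that their counts can depend on how reads were assigned.

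The sensors split too. Eif2ak3 (PERK) fell to 24, 26.1 and 24.9 CPM in knockout cultures with antigen, against 39.3, 40.4 and 37.2 CPM without, and to 23.5, 25.3 and 24.6 CPM in WT cultures with antigen, against 41.4, 37.6 and 40.1 CPM without. Its log2 fold changes were -0.64 ± 0.0507 in knockout and -0.69 ± 0.0512 in WT. Atf6 fell by 0.35 on the log2 scale in both genotypes. Ern1 (IRE1) rose instead, to 112, 118 and 115 CPM in knockout cultures with antigen, against 87.5, 91.8 and 87.5 CPM without. In WT cultures it rose to 128, 142 and 131 CPM, against 89, 84.4 and 83.4 CPM without, and its antigen libraries stood above those of the knockout. Xbp1, the RNA that IRE1 splices, rose by 0.24 on the log2 scale in knockout and by 0.15 in WT. Gene counts do not show splicing, cleavage or phosphorylation, so activity of the sensors was not measured.

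Other genes of the same pathways, taken from lists that hold no member, moved as follows under antigen. Of 23 further ATF4 targets tested, 18 were higher and 4 lower in knockout (median log2 fold change 1.52), and 17 were higher and 4 lower in WT (median 1.16). Slc7a11, the cystine importer, rose by 4.37 on the log2 scale in knockout and 4.49 in WT, Nupr1, a stress-induced chromatin protein, by 4.14 in knockout and 3.43 in WT, and the mTORC1 inhibitor Ddit4 by 3.26 in knockout and 2.69 in WT. Psat1, an enzyme of serine synthesis, was lower by contrast, with -1.03 in knockout and -1.10 in WT, as was the glutamine carrier Slc1a5, with -0.90 in knockout and -1.04 in WT. Of 17 tRNA synthetases, many of them known to respond to ATF4, 12 were higher and 2 lower in knockout, and 8 were higher and 2 lower in WT. Aars had the largest rise, with 1.64 in knockout and 1.51 in WT.

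Of 17 further ER folding genes 7 were higher and 6 lower in knockout, and 8 higher and 6 lower in WT. Ero1l, the ERO1 oxidase that drives disulphide formation and that is known to respond to low oxygen as well, rose far beyond the others, by 3.72 in knockout and 3.98 in WT. Erp44, which retains ERO1 in the ER, rose by 0.61 in knockout and 0.69 in WT, and Cnpy2 had -0.62 in knockout and -0.52 in WT. Of 15 translocation genes 5 were higher and 6 lower in knockout, and 5 higher and 5 lower in WT. Of 12 further ERAD genes 3 were higher and 5 lower in knockout, and 2 higher and 4 lower in WT, with Vcp, the segregase that pulls proteins from the membrane, at -0.23 in knockout and -0.22 in WT. Of 14 genes of stress signalling 6 were higher and 6 lower in knockout, and 6 higher and 5 lower in WT. Wfs1, an ER membrane protein that restrains ATF6, fell most, with -2.59 in knockout and -1.85 in WT, and Mbtps1, the protease that first cuts ATF6, had -0.49 in knockout and -0.59 in WT. Of 6 mitochondrial chaperone and protease genes 3 were higher in each genotype, led by Hspa9 (1.30 in knockout, 1.33 in WT), with 1 lower in knockout and 2 in WT.

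The antigen response of 6 members differed between genotypes, 1 being more positive and 5 more negative in knockout, beside 3.79% and 4.60% of all tested genes. Asns rose more in knockout, with a difference of log2 fold changes of 0.61 ± 0.109 (adjusted p = 0.000633). Atf3 differed by -0.49 ± 0.0704 (adjusted p = 3.35e-05). For both genes, and for Edem2, the genotypes were called different without antigen and not with it. Edem2 stood at 91.2, 102 and 98.8 CPM in KO_Ag against 114, 96.8 and 106 CPM in KO_none, and at 90.1, 101 and 93.6 CPM in WT_Ag against 82.9, 83.4 and 83.5 CPM in WT_none. The difference of its responses was -0.31 ± 0.0769 (adjusted p = 0.0113).

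For Ern1, Dnajb9 and P4hb the genotypes were not called different without antigen and were called different with it. The differences of responses were -0.28 ± 0.0682 for Ern1 (adjusted p = 0.0102), -0.19 ± 0.0593 for Dnajb9 (0.0384) and -0.17 ± 0.0469 for P4hb (0.0200). Replicate 1 of KO_Ag carried several of these calls: without it the adjusted p was 0.0709 for Edem2, 0.0502 for Ern1, 0.0801 for P4hb and 0.144 for Dnajb9. P4hb also lost its call without replicate 2 of KO_Ag (0.0536), replicate 1 of WT_Ag (0.0594) or replicate 3 of WT_none (0.0629), and Dnajb9 without any 1 of 12 libraries (adjusted p 0.0501 to 0.144). Among further ATF4 targets 4 responded more in knockout and 0 less, namely Phgdh, the first enzyme of serine synthesis (0.94), Nupr1 (0.70), Slc7a1 (0.43) and Mthfd2 (0.37), and among the synthetases Tars (0.31) and Kars (0.18). Of these, Phgdh, Mthfd2 and Tars were lower in knockout than in WT without antigen, and those libraries enter the difference of responses. The median difference was -0.07 for folding genes, 0.10 for ATF4 targets and -0.01 for all genes.

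**Figure D4:**
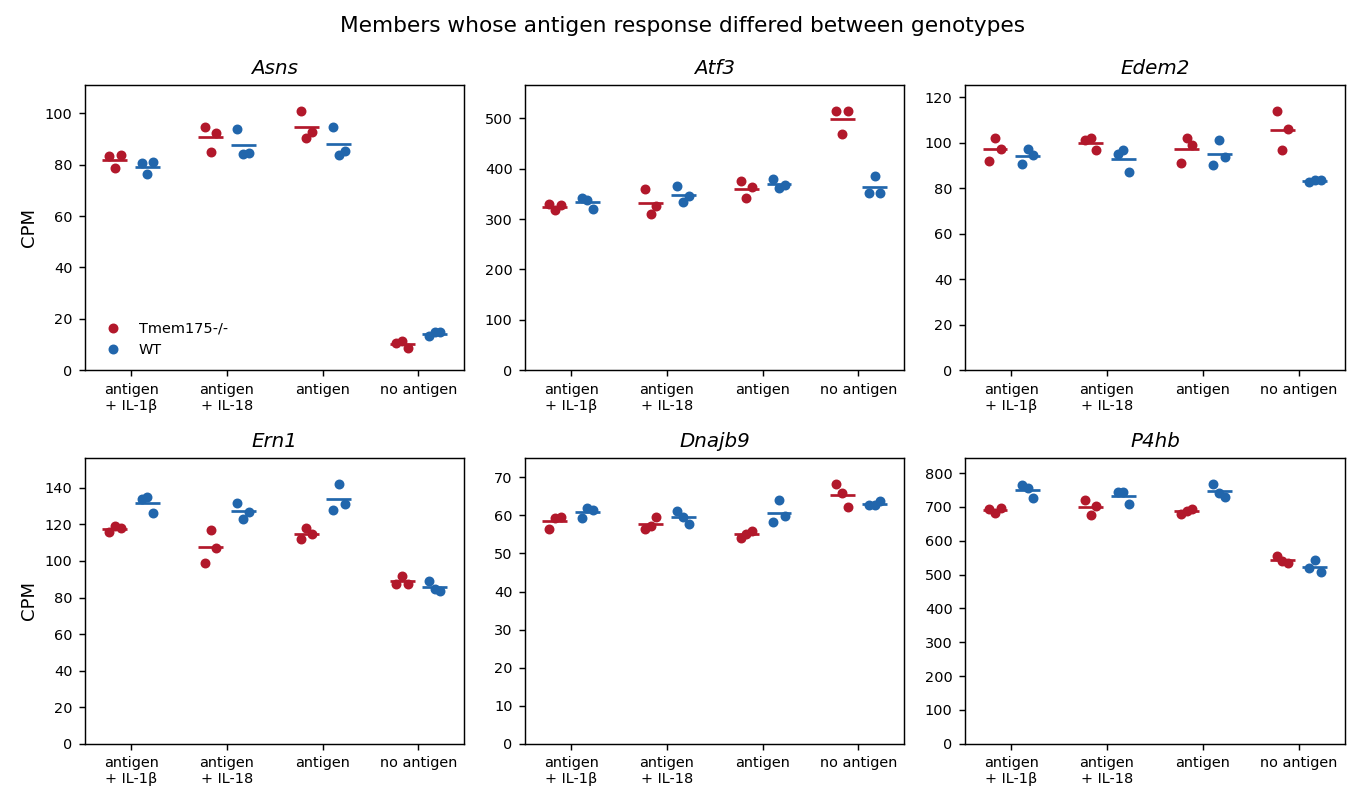
CPM of the 6 members whose antigen response differed between genotypes, by condition and genotype, on axes that start at 0; points are the 3 libraries of a group and lines their means. Asns, Atf3 and Edem2 differ between genotypes in the libraries without antigen, while Ern1, Dnajb9 and P4hb lie lower in KO_Ag than in WT_Ag.

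Without antigen, knockout cultures had more Atf3 and Edem2 and less Asns, Herpud1 and Sesn2 RNA than WT cultures. These 2 higher and 3 lower calls among 35 members stood beside 9.62% of all tested genes higher and 7.25% lower. Atf3 stood at 515, 469 and 514 CPM in knockout, against 352, 385 and 352 CPM in WT. The groups were well apart, 1.38-fold (log2 fold change 0.46 ± 0.0498, adjusted p = 8.71e-08). Edem2 stood at 114, 96.8 and 106 CPM in knockout, against 82.9, 83.4 and 83.5 CPM in WT (0.34 ± 0.0546, adjusted p = 3.63e-05).

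Asns stood at 10.4, 11.3 and 8.76 CPM in knockout, against 13.2, 14.8 and 14.8 CPM in WT, 1.41-fold lower (-0.50 ± 0.0926, adjusted p = 0.000295). Herpud1 stood at 29.2, 24.9 and 24.7 CPM in knockout, against 32.8, 33.9 and 34.7 CPM in WT (-0.36 ± 0.0603, adjusted p = 5.48e-05). Sesn2 stood at 10.9, 11.9 and 11.9 CPM in knockout, against 13.8, 14 and 13 CPM in WT. The groups did not overlap for Asns, Herpud1 or Sesn2, but the Sesn2 call (-0.24 ± 0.0743, adjusted p = 0.0267) was lost with DESeq2 (0.0593), without replicate 1 of KO_none (0.149), and without replicate 1 (0.0769) or replicate 2 (0.0996) of WT_none.

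Without antigen edgeR called 0 folding genes, 0 had an unadjusted p under 0.05, and DESeq2 called 0. Their log2 fold changes lay between -0.08 and 0.16, with a median of -0.02. Hspa5 stood at 943, 1030 and 928 CPM in knockout, against 993, 1050 and 991 CPM in WT, which overlap. The ATF4 targets had a median of -0.09, with Atf4 itself at -0.12 and not called. The further ATF4 targets had a median of -0.18 with 1 higher and 6 lower of 23. Phgdh was 1.13 lower on the log2 scale in knockout, at 3.49, 3.99 and 4.27 CPM against 8.09, 8.4 and 9.3 CPM in WT, and the amino acid carrier Slc7a5 had -0.60. Ddit4 had -1.03 and Mthfd2, of mitochondrial folate metabolism, -0.39. Slc3a2, the partner subunit of Slc7a5, was higher, with 0.21. Of the tRNA synthetases 0 were higher and 4 lower, namely Wars, Tars, Vars and Nars, between -0.41 and -0.12. Wfs1 was higher, with 0.86 ± 0.0715.

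With antigen, 6 of the 8 calls were of folding genes. In KO_Ag against WT_Ag 1 member was higher and 7 were lower, beside 7.70% of all tested genes higher and 7.62% lower. Of the ATF4 targets edgeR and DESeq2 each called 0, and 1 had an unadjusted p under 0.05. Creld2 was the higher one, at 24.4, 23.5 and 23.2 CPM in knockout, against 18.4, 16.5 and 17.1 CPM in WT (log2 fold change 0.46 ± 0.0840, adjusted p = 0.000269). Hspa5 stood at 814, 823 and 810 CPM in knockout, against 913, 929 and 866 CPM in WT (-0.15 ± 0.0424, adjusted p = 0.0171). Hyou1 stood at 131, 132 and 132 CPM in knockout, against 151, 145 and 145 CPM in WT (-0.16 ± 0.0352, adjusted p = 0.00181). These groups did not overlap, although the lower ones differed by only 1.11-fold and 1.12-fold.

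Pdia6, a disulphide isomerase that also acts on IRE1, stood at 222, 214 and 220 CPM in KO_Ag, against 256, 238 and 246 CPM in WT_Ag (-0.18 ± 0.0488, adjusted p = 0.0130). P4hb had -0.12 and Canx, the membrane-bound relative of Calr, -0.11. Among these folding genes P4hb alone also differed between genotypes in its antigen response. Outside them, Ern1 was lower at 112, 118 and 115 CPM in KO_Ag, against 128, 142 and 131 CPM in WT_Ag (-0.22 ± 0.0474, adjusted p = 0.00147), and Dnajb9 was lower (-0.14). Of the 13 folding genes 11 had negative log2 fold changes, with a median of -0.09, and summed over the list they stood at 4940 to 5010 CPM in KO_Ag against 5220 to 5460 CPM in WT_Ag. Xbp1 was higher in knockout, with 0.10 with IL-1β, 0.19 with IL-18 and 0.15 with antigen alone. Without a filter on low counts the adjusted p was 0.0826 for Canx, 0.0519 for P4hb and 0.0530 for Dnajb9. The calls of Hyou1, Ern1 and Creld2 held without each library in turn. Those of Canx were lost without KO_Ag replicate 2 (adjusted p = 0.0805) or WT_Ag replicate 1 (0.0924), of Pdia6 without the same 2 libraries (0.0638 and 0.0785), of P4hb without KO_Ag replicate 1 (0.0736) or WT_Ag replicate 1 (0.0850), of Hspa5 without KO_Ag replicate 1 (0.0631) or 3 (0.0610) or WT_Ag replicate 1 (0.0622) or 2 (0.0904), and of Dnajb9 without KO_Ag replicate 1 (0.110) or 2 (0.0649) or WT_Ag replicate 2 (0.166).

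In the cultures with antigen and a cytokine, knockout was again compared with WT in libraries of their own. With IL-1β 1 member was higher and 4 were lower, beside 7.22% of all tested genes higher and 6.55% lower. Creld2 was higher, at 25.8, 22.2 and 24.5 CPM in knockout, against 17.2, 19.2 and 16.9 CPM in WT (0.44 ± 0.0833, adjusted p = 0.00043). Hyou1 was lower (-0.17, adjusted p = 0.000908), as were Ern1 (-0.16, 0.0188), Pdia6 (-0.15, 0.0324) and P4hb (-0.12, 0.0156). Hspa5 stood at 823, 839 and 833 CPM in knockout, against 911, 954 and 854 CPM in WT. These ranges did not overlap, but Hspa5 missed the call with edgeR (-0.12, adjusted p = 0.0504). DESeq2 called 1 folding gene higher and 4 lower with IL-1β. With IL-18 1 member was higher and 4 were lower, beside 9.89% of all tested genes higher and 10.3% lower. Creld2 was higher, at 27.1, 22.9 and 20.9 CPM in knockout, against 17.5, 17 and 15.5 CPM in WT (0.50 ± 0.0843, adjusted p = 8.91e-05). Hyou1 was lower (-0.21, adjusted p = 6.62e-05), as were Ern1 (-0.24, 0.000461), Pdia6 (-0.14, 0.0463) and Canx (-0.09, 0.0319).

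Creld2 was thus higher, and Hyou1, Ern1 and Pdia6 lower, in knockout in all 3 conditions with antigen. These 3 comparisons share no library, but 1 fit over all 24 libraries gave their tests. The labels do not say whether the conditions share source material, so they are not taken as independent repeats. The ranges of Creld2, Hyou1 and Ern1 did not overlap in any of the 3, while those of Pdia6 overlapped with IL-18. For knockout against WT with IL-18, the Pdia6 call was lost without any 1 of 13 of the 24 libraries (adjusted p 0.0512 to 0.229). Some of these lay outside that comparison, such as WT_none replicate 3 (0.0512). With IL-1β the Pdia6 call was lost without any 1 of 5 libraries (0.0516 to 0.184). That of Canx with IL-18 was lost without any 1 of 8 (0.0544 to 0.0960). With IL-18 DESeq2 gave Pdia6 an adjusted p of 0.0606, and Canx had 0.163 without a filter on low counts. With IL-1β the call of P4hb was lost without KO_Ag_IL1b replicate 2 (0.0696) or WT_Ag_IL1b replicate 1 (0.0949) or 2 (0.0589). That of Ern1 was lost without KO_Ag_IL1b replicate 1 (0.0915) or 3 (0.0557) or WT_Ag_IL1b replicate 1 (0.0819) or 2 (0.0891). Of the ATF4 targets edgeR and DESeq2 each called 0 in both conditions, while 3 had an unadjusted p under 0.05 with IL-1β and 1 with IL-18, and their medians were -0.01 with IL-1β and -0.08 with IL-18. The further ATF4 targets had 0 higher and 5 lower calls with IL-1β and 0 higher and 6 lower with IL-18, led by Stc2 (-1.40) and Aldh1l2 (-1.13) with IL-1β and Aldh1l2 (-1.35) and Stc2 (-1.29) with IL-18. Ddit4 was lower in both, with -0.58 with IL-1β and -0.68 with IL-18.

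**Figure D5:**
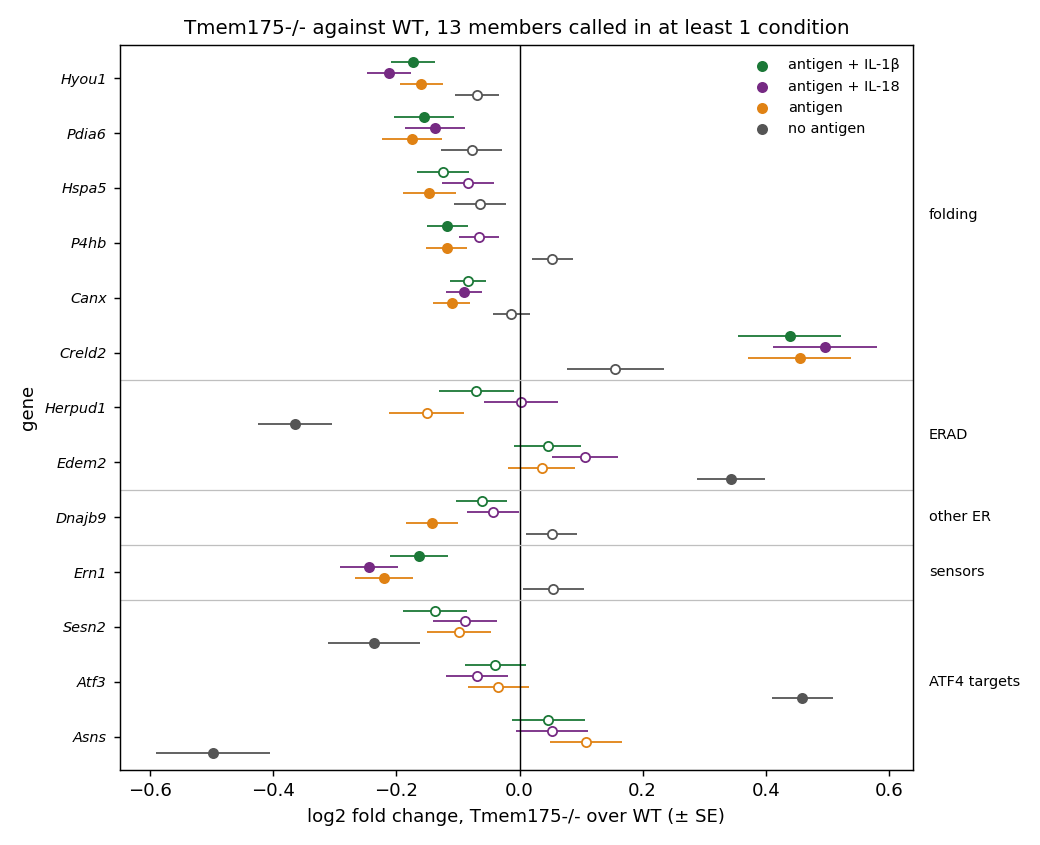
Log2 fold change between Tmem175-/- and WT cultures, with SE bars, of the 13 members called in at least 1 condition, coloured by condition; filled points passed the test and open points did not. Creld2 lies at 0.44 to 0.50 in the 3 conditions with antigen, and Asns, Sesn2, Herpud1, Edem2 and Atf3 passed the test without antigen.

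Of 9 plasma cell markers tested, most were higher in knockout: 8 higher and 1 lower with IL-1β, 8 and 1 with IL-18, 7 and 1 with antigen alone, and 7 higher and 0 lower without antigen. The lower one was Sdc1, a surface marker of plasma cells that other cells also carry, with log2 fold changes of -0.36 with IL-1β, -0.28 with IL-18 and -0.42 with antigen alone, whereas it was higher in knockout without antigen (0.46). Derl3, an ERAD gene of secretory cells, stood at 1.01 to 3.43 CPM in the 12 knockout libraries, against 0 to 0.394 CPM in the 12 WT libraries. Bhlha15 (MIST1), a regulator of secretory cells, stood at 0.536 to 1.40 CPM in knockout, against 0 to 0.0987 CPM in WT. Igkc, an antibody light chain, stood at 902, 746 and 855 CPM in KO_Ag against 15.2, 12.8 and 20.9 CPM in WT_Ag. Their part in the differences of members and of Xbp1 was not tested. Nor was that of the other cell types whose marker sums differed between genotypes. With the immunoglobulin genes left out of the scaling, all 85 calls of members remained. That run keeps any plasma cell RNA of the members in their counts, so it does not bear on the part of plasma cells.

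Set against antigen alone, the cytokines gave 1 call among the 35 genes in the fit of unpaired libraries. When the fit took replicate numbers into account, more members were called with IL-1β, as given in the closing section on processing. IL-1β lowered 1 member in WT cultures, beside 0.0567% of all tested genes called in either direction. This was Atf5, at 70.7, 59.6 and 71.5 CPM in WT_Ag_IL1b against 91.9, 78.3 and 92.1 CPM in WT_Ag (log2 fold change -0.38 ± 0.0681, adjusted p = 0.0309). The groups did not overlap, but the call was lost without WT_Ag_IL1b replicate 2 (adjusted p = 0.216), WT_Ag replicate 1 (0.366) or 3 (0.169), WT_Ag_IL18 replicate 3 (0.0537), or KO_Ag_IL18 replicate 1 (0.0511) or 2 (0.0552). In knockout cultures Atf5 stood at 71.8, 71.8 and 72.1 CPM in KO_Ag_IL1b against 77.3, 76.9 and 80.6 CPM in KO_Ag and was not called.

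In knockout cultures IL-1β gave no call among members in the unpaired fit, beside 0.0426% of all tested genes. However, 6 members had an unadjusted p under 0.05 and DESeq2 called 1, Atf4. It stood at 339, 304 and 327 CPM in KO_Ag_IL1b against 398, 354 and 384 CPM in KO_Ag, and at 338, 319 and 333 CPM in WT_Ag_IL1b against 392, 343 and 383 CPM in WT_Ag. The groups did not overlap in either genotype, but the differences were not called, with -0.23 (adjusted p = 0.162) in knockout and -0.17 (0.421) in WT. The ATF4 targets had medians of -0.15 in knockout and -0.14 in WT, and the folding genes 0.03 in knockout and 0.01 in WT.

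IL-18 gave no call among members in either genotype. In knockout cultures 0.213% of all tested genes were called, 3 members had an unadjusted p under 0.05, and DESeq2 called 0 members. In WT cultures 0% of all tested genes were called with edgeR, while 580 had an unadjusted p under 0.05 and DESeq2 called 1 gene. Among members 0 had an unadjusted p under 0.05, and DESeq2 called 0. Atf4 stood at 390, 317 and 348 CPM in KO_Ag_IL18 and at 375, 341 and 368 CPM in WT_Ag_IL18, overlapping the groups with antigen alone. The responses to the cytokines were not called different between genotypes for any member, beside 0% of all tested genes for IL-1β and 0% for IL-18. In each of these 2 tests 2 members had an unadjusted p under 0.05 and DESeq2 called 0, and over all genes 576 had an unadjusted p under 0.05 for IL-1β and 919 for IL-18, while DESeq2 called 0 for IL-1β and 4 for IL-18. The SE of a member's cytokine response had a median of 0.0476 in knockout and 0.0471 in WT with IL-1β, so that small changes could have been missed.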

How the data were processed

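RNA of 24 co-cultures was sequenced after poly(A) selection. The deposited values are raw counts per gene, which the authors made from reads trimmed with fastp and referred to GRCm39, per the submitters' processing notes. The aligner and counter are not given in the sources used here. Gene symbols were matched by Ensembl identifier, and 346 of 55487 identifiers had no symbol. Groups followed the sample titles.

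Genes passing edgeR's filterByExpr (14099) were scaled by TMM and fitted with edgeR 4.0.16 (limma 3.58.1, R 4.3.3) by robust quasi-likelihood over all 24 libraries. Adjusted p-values are Benjamini-Hochberg over all tested genes, and SE is the absolute log2 fold change over the root of F. DESeq2 1.42.0, other scalings, no filter, a replicate block, the compared groups alone and leaving out each library were alternatives. The fits were tested on simulated data. Levels per kilobase used the longest GENCODE vM21 transcript.

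Depth was 17744540 to 24898552 counts per library, and Chac1 had 2 to 9 counts per library without antigen, so its values are imprecise. The members and lists were chosen with earlier results of these data known. Per-library values are given for up to 5 called members of a class in each comparison, by size of change, with at least 2 CPM in the higher group, and each pathway list names up to 4 called genes in each direction. Some further members are given for comparison.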

Additional observations from a re-analysis of the deposited data

Results flagged for a closer look

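The response to antigen differed between Tmem175-/- and WT cultures for 6 members, by the test of the difference itself in edgeR's fit over all genes. The difference of log2 fold changes was 0.61 for Asns, which was more positive in knockout. It was -0.49 for Atf3, -0.31 for Edem2, -0.28 for Ern1, -0.19 for Dnajb9 and -0.17 for P4hb. In the knockout cultures Atf3 and Dnajb9 fell with antigen, and Ern1 and P4hb rose less than in WT cultures. Leaving out each library in turn kept the calls of Asns and Atf3.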

How the results depend on the processing

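Of 85 calls of members over all comparisons, none changed direction under any alternative run. All 85 remained with median-of-ratios size factors, with the replicate block and with immunoglobulin genes left out of the scaling, 83 with DESeq2, 80 with no filter on low counts, 79 with the compared groups fitted alone, and 65 through every omission of 1 library. The labels do not say that a replicate number marks shared material, and the libraries were analysed as unpaired. Same-numbered libraries correlated in their deviations with a median r of 0.073 (-0.045 to 0.276), against -0.045 for other pairs, and 30 of 84 pairs were over 0.1. As a hint from the data that numbers may share a source, 21 of 24 libraries were closest to their own number. With the replicate block 4 members were higher in KO_none than in WT_none, and IL-1β lowered 4 in knockout and 2 in WT. With no filter IL-1β lowered 3 members in knockout and 2 in WT, and 2 antigen responses were more positive in knockout. With the compared groups alone 9 members were lower in knockout with IL-1β and 2 with IL-18, IL-1β lowered 0 in WT, and 3 antigen responses were more negative in knockout. DESeq2 gave 1 member lowered by IL-1β in knockout. The causes were not tested.

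Leaving out 1 library gave 2 to 5 members lower in KO_none, 3 to 8 in KO_Ag, 1 to 6 in KO_Ag_IL1b and 2 to 6 in KO_Ag_IL18 than in WT, 0 to 3 lowered by IL-1β in knockout and 0 to 1 in WT, and 1 to 2 antigen responses more positive and 1 to 5 more negative in knockout. The ATF4 target median ranged from -0.19 to -0.01 for KO_none against WT_none, -0.04 to 0.03 for KO_Ag_IL1b against WT_Ag_IL1b, 2.28 to 2.38 for antigen in WT, -0.17 to -0.08 for IL-1β in WT, 0.02 to 0.17 for the difference of antigen responses and -0.12 to -0.01 for that of IL-1β responses. The folding median ranged from 0 to 0.03 for IL-1β in knockout and from -0.06 to -0.01 for IL-18 in WT. Over all genes the cytokine counts depended most on the settings: IL-1β in knockout called 6 genes, against 55 with DESeq2, 287 with no filter and 422 with the block, and IL-1β in WT called 8, against 79 with no filter, 102 with the block and 46 with the groups alone. IL-18 in knockout called 30, against 231 with DESeq2, 302 with no filter, 274 with the block and 0 with the groups alone.
IL-18 in WT called 0, against 1 with DESeq2, 2 with no filter, 1 with the block and 2 with the groups alone. Differences between genotypes in the IL-18 response called 0, against 4 with DESeq2, 17 with no filter and 5 with the block, and in the IL-1β response 0, against 1 with no filter.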

Other observations

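Cytosolic heat shock genes moved in both directions with antigen. Of 11 tested, 5 were higher and 3 lower with antigen in knockout cultures, and 3 higher and 2 lower in WT cultures, beside 33.8% of all tested genes higher and 34.6% lower in knockout and 33.5% higher and 34.5% lower in WT. Hspa1a, an inducible HSP70, rose by 0.77 on the log2 scale in knockout and 1.27 in WT, while its cochaperone Bag3 had -1.07 in knockout and -0.70 in WT. Without antigen Bag3 (0.41), Hsph1 (0.22) and Hsp90ab1 (0.09) were higher in knockout than in WT, beside 9.62% of all tested genes. Their antigen responses were more negative in knockout, by -0.37 for Bag3, -0.22 for Hsph1 and -0.13 for Hsp90ab1, beside 4.6% of all tested genes. The libraries without antigen enter both comparisons, so the second is not a separate observation. With antigen 0 of the 11 were called between genotypes, and 0 had an unadjusted p under 0.05.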
